A study of Homo sapiens with 19 samples.

Results

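The subject is 4 entries of the human miRNA catalogue grouped for a resemblance to pieces of tRNA: hsa-miR-4454, hsa-miR-5100, hsa-miR-1260a and hsa-miR-1260b. The resemblance was found in 3 of them, and for miR-5100 it was not found in the sequences at hand. They were taken by name from the first column of each count file, a name missing from a file was counted as 0, and all 4 were found among the 1043 entries listed. The libraries come from Caco-2, an established human colorectal epithelial line, labelled wild type, and from its culture medium. All groups share the same growth: medium with 20% fetal bovine serum until 80% confluence, then 24 h in medium without serum or antibiotics. Replicates carry a batch number. No label says whether they are separate cultures, so the spread behind each p-value may be technical.

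The 5 groups are S100, the supernatant of a 100000 xg spin (3 libraries used), P100, the pellet of that spin (4), P40, the pellet of the preceding 40000 xg spin (4), total exRNA, the extracellular RNA of the cleared medium before those spins (4), and cell lysate (3). RNA of S100 and total exRNA was precipitated before Trizol extraction, whereas P100, P40 and lysate RNA went into Trizol directly. Where a comparison crosses these preparations, the fraction and the preparation cannot be told apart. P100 and P40 against lysate, S100 against total exRNA and P100 against P40 do not cross them.

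A tRNA carries an amino acid to the ribosome, and every mature tRNA ends in the bases CCA, which an enzyme adds after transcription because nuclear human tRNA genes do not encode them. Cells and body fluids hold tRNA cut into shorter pieces, some of the length of a miRNA. A small RNA read that matches such a piece can be counted under a miRNA name with the same or nearly the same sequence. miRNAs proper are cut from hairpin precursors and find their targets mainly through the seed, bases 2 to 8.

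The mature sequences are shown so that a tRNA-like end can be seen in miR-4454, miR-1260a and miR-1260b and set beside miR-5100, which lacks one. They are given as RefSeq lists them for GRCh38.p14, 5′ to 3′, with the seed in capitals.
hsa-miR-4454: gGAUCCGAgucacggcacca
hsa-miR-5100: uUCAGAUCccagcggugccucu
hsa-miR-1260a: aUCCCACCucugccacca
hsa-miR-1260b: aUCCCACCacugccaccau
miR-4454 (20 bases, minus strand, chr4:163093607-163093626) and miR-5100 (22 bases, plus strand, chr10:42997630-42997651) lie in exons of their own miRNA genes, with no other annotated gene at the site. miR-1260a (18 bases, plus strand, chr14:77266231-77266248) lies opposite a UTR exon of NGB, the neuroglobin gene. miR-1260b (19 bases, plus strand, chr11:96341447-96341465) lies opposite a coding exon of MAML2, a gene for a coactivator of Notch signalling.

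miR-1260a and miR-1260b share the seed UCCCACC, which no other of the 2370 mature names in the table has. Counted from the 5′ end, miR-1260b differs from miR-1260a by U9A and has 1 extra U at its 3′ end. How the authors assigned reads that fit more than 1 entry is not given in the sources used here, so the division of reads between them is uncertain. The seeds of miR-4454 and miR-5100 occur in no other name. miR-4454 and miR-1260a end in CCA, as do 45 of the 2370 names (1.9%), and miR-1260b has CCA followed by its extra U, while miR-5100 has no CCA near its end.

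The 3′ ends of 20 of the 465 RefSeq tRNA genes could be read from the promoter sequences at hand, so the comparison with tRNA genes is partial. miR-4454 was closest to the ends of TRH-GTG1-3 (chr1:148281420-148281436, plus strand) and TRH-GTG1-9 (chr15:45201206-45201222, plus strand), histidine tRNA genes. miR-1260a and miR-1260b were closest to TRL-AAG2-2 (chr6:28943622-28943636, minus strand) and TRL-AAG2-4 (chr16:22297207-22297221, plus strand), leucine tRNA genes. These gene ends, with the base that differs in capitals, show how near the matches are.
TRH-GTG1-3 and TRH-GTG1-9 end: gAatccgagtcacggca
TRL-AAG2-2 and TRL-AAG2-4 end: atcccaccGctgcca
Counted from the miRNA's 5′ end, with the miRNA's base first, the single difference inside the gene was G2A for miR-4454, U9G for miR-1260a and A9G for miR-1260b. The last 3 bases of miR-4454 and of miR-1260a, CCA, lie beyond the gene end, where a mature tRNA carries its added CCA. Of all 2370 names 4 (0.169%) came within 2 mismatches of such an end, namely miR-4454, miR-1260a, miR-1260b and miR-7975. miR-5100 came no closer than 6 mismatches to any of the 20 ends, which says only that these windows do not hold its sequence.

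The libraries used held 10017 to 225290 counts (median 35940), and S100 was the deepest group with 198878 to 225290, while P100 and P40 were the shallowest with 10017 to 27027 and 10490 to 26096. A 4th S100 library, replicate 1, held 48 counts, none of them from the 4 entries, and was left out. All 9 intestinal epithelial marker miRNAs were detected in every library used, at a mean of 3.00% of counts in S100, 4.11% in P100, 4.46% in P40, 4.94% in total exRNA and 5.57% in lysate. Levels are given as CPM, TMM-scaled counts set to a common library size over the tested miRNAs, so they are shares of a library and not amounts in a fraction. Intervals and floors cover counting error only, since no molecular identifiers were used.

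miR-4454 was an abundant RNA of the cells and of the unfractionated medium and was lower in each centrifugation fraction. In S100 it had 51.3, 196 and 288 CPM in replicates 2 to 4, from 10, 47 and 55 counts. In P100 it had 2074, 2626, 2058 and 1319 CPM in replicates 1 to 4, and in P40 2758, 5106, 1556 and 1660 CPM. These fraction libraries lay below every lysate library, and S100 lay below all other groups. Total exRNA had 22328, 3596, 12793 and 10830 CPM in replicates 1 to 4, and lysate 36607, 21839 and 15353 CPM in replicates 1 to 3. Total exRNA overlapped lysate through its replicate 1 and overlapped P40 through its low replicate 2, which lay under P40 replicate 2.

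By group mean the order ran from 178 ± 119 CPM (SD) over the 3 S100 libraries through 2019 ± 536 over 4 P100, 2770 ± 1649 over 4 P40 and 12387 ± 7718 over 4 total exRNA libraries to 24599 ± 10893 over 3 lysate libraries. As a share of all counts the mean was 0.0170% in S100, 0.190% in P100, 0.294% in P40, 1.29% in total exRNA and 2.04% in lysate. miR-4454 ranked 167th to 289th among the entries of an S100 library, 54th to 87th in P100, 32nd to 72nd in P40, 10th to 43rd in total exRNA and 7th to 17th in lysate. The neighbours P100 and P40, and total exRNA and lysate, did not differ beyond their spread.

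**Figure D1:**
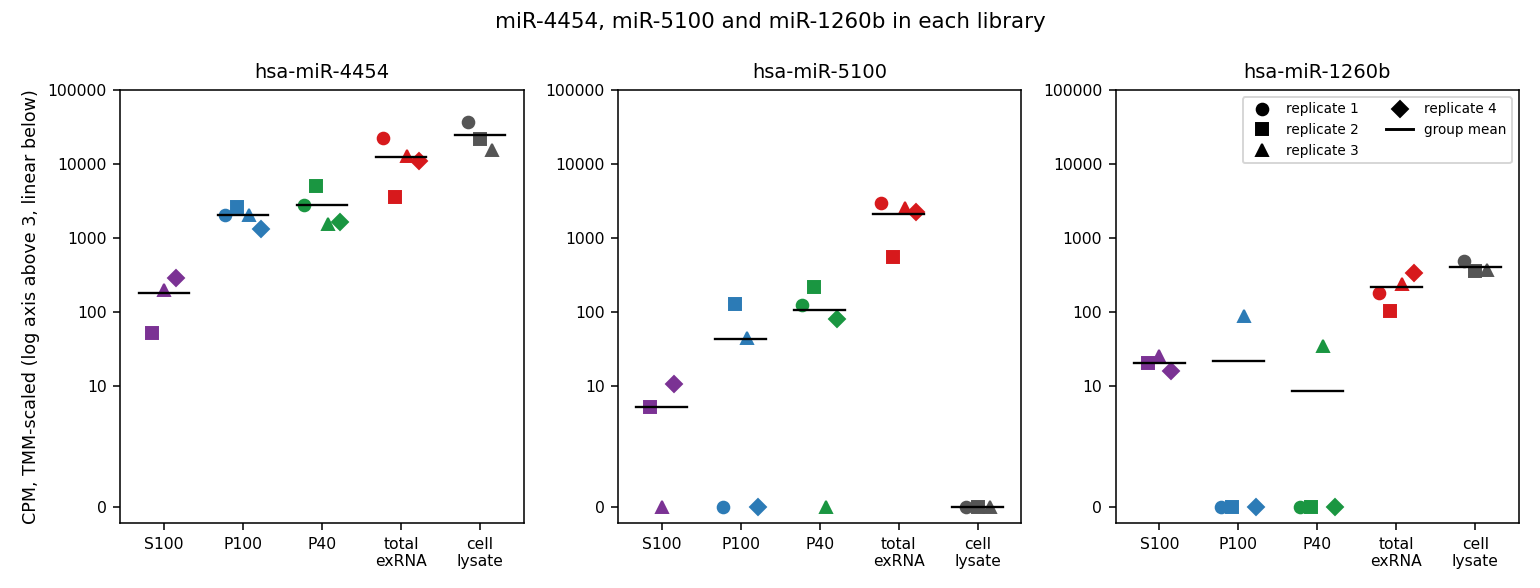
Level of miR-4454, miR-5100 and miR-1260b in each of the 18 libraries, in TMM-scaled CPM on an axis that is logarithmic above 3 and linear below, with 1 point per library shaped by replicate number and a line at each group mean. miR-4454 is lowest in S100, miR-5100 is high in total exRNA alone and at 0 in all 3 lysate libraries, and miR-1260b is at 0 in 3 of 4 libraries of each pellet.

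Against lysate, miR-4454 was lower in S100 by 136-fold (log2 fold change -7.09 ± 0.74, SE), with an adjusted p of 1.17e-07 (edgeR's quasi-likelihood F test, adjusted by Benjamini-Hochberg over 227 miRNAs). It was lower in P100 by 12.0-fold (-3.58 ± 0.57, edgeR adjusted p = 4.56e-05) and in P40 by 8.86-fold (-3.15 ± 0.56, edgeR adjusted p = 0.00022). Within shared batch numbers it was lower in S100 in 2 of 2, in P100 in 3 of 3 and in P40 in 3 of 3. Among the 227 miRNAs tested, its fold change was the 3rd lowest in S100, the 4th lowest in P100 and the 5th lowest in P40. Total exRNA differed from lysate by -0.99 ± 0.52 on the log2 scale, which did not pass (edgeR adjusted p = 0.155), although total exRNA was the lower of each of the 3 batch pairs (-2.59 to -0.26).

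Against total exRNA, miR-4454 was lower in S100 by 68.6-fold (-6.10 ± 0.70, edgeR adjusted p = 4.32e-07), in P100 by 6.04-fold (-2.59 ± 0.53, edgeR adjusted p = 0.00111) and in P40 by 4.46-fold (-2.16 ± 0.52, edgeR adjusted p = 0.0101). S100 and P100 were lower in each of 3 and of 4 shared batches, and P40 in 3 of 4, with batch 2 the other way (log2 difference 0.50). In the test all 3 fractions were thus below total exRNA as a share of a library, which is not an amount. P100 and P40 also differ from total exRNA in preparation. S100 was also lower than P100 (-3.51 ± 0.63, edgeR adjusted p = 0.00011) and P40 (-3.94 ± 0.64, edgeR adjusted p = 4.5e-05). P100 and P40 differed by -0.44 ± 0.53, which did not pass (edgeR adjusted p = 0.600), and the sign of this difference turned without P40 replicate 2 (0.045).

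miR-5100 was present in quantity in total exRNA alone. Its counts in total exRNA were 114, 37, 138 and 81 in replicates 1 to 4, and lysate had none in 260500 counts, which allows a share of up to 0.00115%. The fraction libraries held few: 1, 0 and 2 counts in S100 replicates 2 to 4, 0, 3, 1 and 0 in P100 replicates 1 to 4, and 2, 4, 0 and 1 in P40 replicates 1 to 4. Every total exRNA library lay above every library of all other groups.

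The mean miR-5100 level was 5.21 ± 5.24 CPM (SD) over 3 S100 libraries, 43.2 ± 60.9 over 4 P100, 105 ± 89.8 over 4 P40 and 2079 ± 1063 over 4 total exRNA libraries, and 0 in all 3 lysate libraries. The 4 total exRNA libraries had 2974, 548, 2544 and 2249 CPM, so replicate 2 was the lowest, as it was for miR-4454. miR-5100 ranked 53rd to 117th among the entries of a total exRNA library. In the order of group means, S100 and lysate did not differ beyond their spread, and neither did P100 and P40.

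Summed over libraries, miR-5100 was at least 142-fold higher in total exRNA than in lysate, with the floor of 3 counts taken over the lysate group (edgeR adjusted p = 3.48e-06). That floor leaves out the counting error of the total exRNA counts, and the exact 95% counting interval of the ratio to 0 lysate counts starts at 115. Total exRNA was the higher of the pair in each of 3 batch numbers. miR-5100 entered the test only through its level in total exRNA, so p-values against that group describe the difference and are no separate support. On the same floor miR-5100 was at least 6.92-fold higher in P40 than in lysate (edgeR adjusted p = 0.0129) and at least 4.14-fold higher in P100 (edgeR adjusted p = 0.0356), from 7 and 4 counts, and in both comparisons the libraries overlapped at 0. The exact counting intervals start lower, at 4.28 for P40 and 2.05 for P100. The P40 call ended without P40 replicate 2 (edgeR adjusted p = 0.0567) or lysate replicate 2 (0.0666) and at equal depth (0.291). The P100 call ended with the batch number as a block (edgeR adjusted p = 0.0537), at equal depth (0.479), and without P100 replicate 2 (0.243) or 3 (0.0537) or lysate replicate 2 (0.125) or 3 (0.0646). S100 held 3 counts and lysate 0, so no fold is given (edgeR adjusted p = 0.336).

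Against total exRNA, miR-5100 was lower in S100, in P100 and in P40. The ratio of summed counts in S100 was 0.00254 (exact 95% counting interval 0.000522 to 0.00749, edgeR adjusted p = 4.40e-07), and the fitted log2 fold change was -8.26, or -8.86 without S100 replicate 4. P100 was 37.8-fold lower (log2 fold change -5.24 ± 0.86, edgeR adjusted p = 0.000139), and -6.59 without P100 replicate 2. P40 was 20.9-fold lower (-4.39 ± 0.79, edgeR adjusted p = 0.000958), and -5.17 without P40 replicate 2. S100, P100 and P40 lay below total exRNA in all of their 3, 4 and 4 shared batches.

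Among the fractions, the miR-5100 ratio of S100 to P40 was 0.0521 (counting interval 0.0087 to 0.228, edgeR adjusted p = 0.00652), and the libraries overlapped. That call ended without P40 replicate 2 (edgeR adjusted p = 0.0696) and at equal depth (0.193), and its fitted log2 fold change of -3.87 was -4.48 without S100 replicate 4. The ratio of S100 to P100 was 0.0872 (0.0128 to 0.516, edgeR adjusted p = 0.0447), which did not pass with the batch number as a block (0.0639) or without P100 replicate 2 (0.461). The call also ended without P100 replicate 3, P40 replicate 1 or 4, S100 replicate 2 or 3, or total exRNA replicate 3 or 4 (edgeR adjusted p = 0.0513 to 0.113), in a fit of only these groups (0.0514), without the low-count filter (0.128) and at equal depth (0.392). Its fitted log2 fold change of -3.02 was -3.62 without S100 replicate 4 and -1.68 without P100 replicate 2. P100 and P40 differed by -0.85 ± 1.15 and did not pass (edgeR adjusted p = 0.646), and the difference was -2.20 to -0.069 when 1 library was left out.

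Over the 4 total exRNA libraries, the proportion of miR-4454 and miR-5100 was steadier than either level. Against the miR-5100 level this rested on replicate 2. There miR-5100 made up 11.8%, 13.2%, 16.6% and 17.2% of the summed miR-4454 and miR-5100 counts in replicates 1 to 4 (14.7% ± 2.63, SD, n = 4). The highest of these shares was 1.46 times the lowest, whereas the miR-4454 level spanned 6.21-fold and the miR-5100 level 5.43-fold. Replicate 2, low in both, lay inside the range of the other libraries in the proportion. Among replicates 1, 3 and 4 the miR-5100 level ran only from 2249 to 2974 CPM, while the share still ran from 11.8% to 17.2%. Without replicate 2 the share was thus not steadier than the miR-5100 level. Over the miRNAs with enough counts, replicate 2 also differed most from its group. Its chi-square of counts per degree of freedom was 58.2 to 64.3, against 6.73 to 28.7 among the others. No other pair of entries was compared in this way, so the steadier proportion is not known to be particular to this pair. Each count is a read of a short mature sequence, so no scaling for length was applied, and how evenly the library kit captures either sequence was not measured.

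Outside total exRNA the proportion was lower. It was 9.09%, 0% and 3.51% in S100 replicates 2 to 4, from 11, 47 and 57 reads of the pair. It was 0%, 4.69%, 2.08% and 0% in P100 replicates 1 to 4, and 4.35%, 4.04%, 0% and 4.55% in P40 replicates 1 to 4. No fraction library reached the lowest total exRNA share, although the exact intervals of libraries with few reads of the pair, such as 0.230% to 41.3% in S100 replicate 2, extend past it. Lysate had 0 of 4953 reads, which allows a share of up to 0.0606%. Pooled over a group, miR-5100 made up 2.61% of the pair in S100, 2.50% in P100, 3.30% in P40 and 14.5% in total exRNA.

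**Figure D2:**
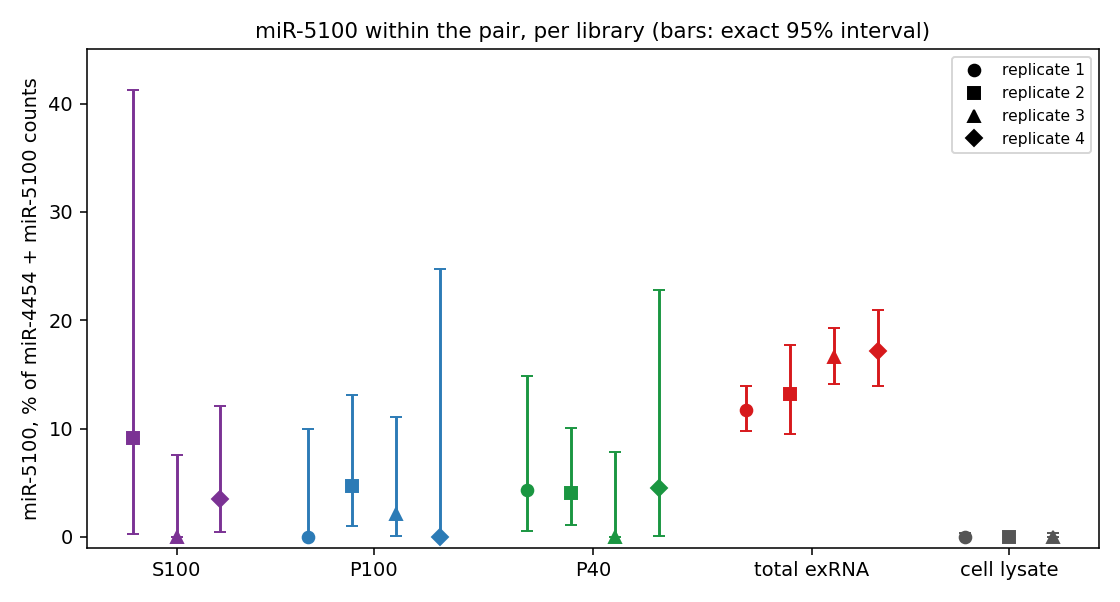
Share of miR-5100 in the summed counts of miR-4454 and miR-5100, in percent, with 1 point per library shaped by replicate number and bars for the exact 95% binomial (Clopper-Pearson) interval. The 4 total exRNA libraries lie at 11.8% to 17.2%, the fraction libraries at 0% to 9.09% with wide intervals, and the 3 lysate libraries at 0%.

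The log2 ratio of miR-4454 to miR-5100 (0.5 added to each count) was higher by 2.46 in P100 and by 2.18 in P40 than in total exRNA. Each gave p = 0.0286 in a two-sided exact permutation test over libraries, the smallest p that 4 against 4 libraries allow, and 0.114 after Benjamini-Hochberg adjustment over 10 comparisons. In S100 the ratio was 2.07 higher than in total exRNA (exact permutation p = 0.114, adjusted p = 0.163), but 1.09 without S100 replicate 3 and 2.97 without S100 replicate 2. Against lysate, where miR-5100 was at 0 in every library, the ratio is set by the added 0.5 and the depth, so no difference is given. None of the 10 comparisons of this ratio passed after adjustment. With groups of 3 or 4 libraries none could have, so this outcome says nothing about whether the ratio differed.

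miR-1260b was a minor entry that was highest in lysate. Its counts were 4, 6 and 3 in S100 replicates 2 to 4, and 7, 7, 13 and 12 in total exRNA replicates 1 to 4. In the pellets it had 2 counts in P100 replicate 3, 1 count in P40 replicate 3, and 0 in the other 6 libraries. Lysate had 14, 49 and 23 counts in replicates 1 to 3. In CPM this came to 20.5, 25.0 and 15.7 in S100, 183, 104, 240 and 333 in total exRNA, and 489, 363 and 371 in lysate. Every lysate library lay above every extracellular library, and every total exRNA library lay above every fraction library.

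The miR-1260b means were 20.4 ± 4.62 CPM (SD) over 3 S100, 21.9 ± 43.8 over 4 P100, 8.65 ± 17.3 over 4 P40, 215 ± 96.7 over 4 total exRNA and 407 ± 70.5 over 3 lysate libraries. A floor of 3 counts over the group stands at 41.2 CPM in P100 and 39.4 CPM in P40, above the S100 mean. A level like that of S100 would thus rest on fewer than 3 counts in either pellet group at this depth. No order among the 3 fractions can therefore be read from these values.

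Against lysate, miR-1260b was lower in S100 by 18.0-fold (-4.17 ± 0.68, edgeR adjusted p = 1.82e-05). The ratio of summed counts was 0.0721 in P100 (exact 95% counting interval 0.0086 to 0.269, edgeR adjusted p = 0.0017) and 0.0345 in P40 (0.000864 to 0.197, edgeR adjusted p = 0.00075). Without P100 replicate 3 or P40 replicate 3, the only pellet libraries with a count, that pellet held 0 and the test still passed (edgeR adjusted p = 0.00104 for P100 and 0.00215 for P40). All shared batches had the same direction, 2 of 2 in S100, 3 of 3 in P100 and 3 of 3 in P40. miR-1260b entered the test through its level in lysate, so p-values against lysate describe the difference and are no separate support. Total exRNA differed from lysate by -0.93 ± 0.57, which did not pass (edgeR adjusted p = 0.234), although the libraries did not overlap.

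Against total exRNA, miR-1260b was lower in S100 by 9.44-fold (-3.24 ± 0.67, edgeR adjusted p = 0.000241). The ratio was 0.138 in P100 (counting interval 0.0162 to 0.534, edgeR adjusted p = 0.0195) and 0.0661 in P40 (0.00163 to 0.390, edgeR adjusted p = 0.0155). Both pellet calls ended at equal depth (edgeR adjusted p = 0.226 in P100 and 0.0716 in P40) and without some single libraries: P100 without P100 replicate 1 (0.0546) or 2 (0.0756) or total exRNA replicate 4 (0.0515), and P40 without P40 replicate 2 (0.0517). The P100 call also ended without the low-count filter (edgeR adjusted p = 0.0676), and the P40 call in a fit of only these groups (0.0526). Without P100 replicate 3 or P40 replicate 3 the pellet in question held 0 counts, and the test passed (edgeR adjusted p = 0.00656 for P100 and 0.0354 for P40). No difference between fractions passed the test (edgeR adjusted p = 0.788 for S100 against P100, 0.704 for S100 against P40 and 0.706 for P100 against P40).

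miR-1260a had 1 count in all, in S100 replicate 4, and did not pass the filter on low counts. With 0 of 260500 counts in lysate its share there could be up to 0.00115%, whereas miR-1260b had 86 of those counts. The near-identical pair was thus recorded almost wholly under miR-1260b, within the doubt about how reads were divided.

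Of the 4 entries, 3 passed the filter, which needed a level of 278 CPM (unscaled) in 3 libraries. miR-5100 reached it in total exRNA alone, and miR-1260b in all 3 lysate libraries and 1 total exRNA library, so each passed through the group where it was high. Counts over the entries describe them and support nothing, and p-values of comparisons with that group are likewise read as description. In total exRNA against lysate 1 of the 3 was called (miR-5100, higher), where 35.2% of all 227 miRNAs were called, 18.9% higher and 16.3% lower. All 3 were called in P40 against lysate, where 26.9% of all miRNAs were called, 13.7% higher and 13.2% lower. All 3 were also called in P100 against lysate, where 37.4% of all miRNAs were called, 16.7% higher and 20.7% lower. In both pellets miR-5100 was the entry that was higher and the others were lower. In S100 against lysate 2 of 3 were called, both lower, where 62.1% of all miRNAs were called, 32.2% higher and 30% lower.

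All 3 were lower in P40 against total exRNA, where 11.9% of all miRNAs were called, 5.73% higher and 6.17% lower. All 3 were lower in P100 against total exRNA, where 27.8% of all were called, 13.2% higher and 14.5% lower. All 3 were lower in S100 against total exRNA, where 63.4% of all were called, 29.5% higher and 33.9% lower. In S100 against P40, 2 of 3 were called lower, where 52.9% of all were called, 25.1% higher and 27.8% lower. In S100 against P100, 2 of 3 were called lower, where 59.9% of all were called, 28.6% higher and 31.3% lower. In these 2 comparisons, and in those of S100 with lysate and total exRNA, over 50% of all miRNAs were called, so the entries' counts there say little about them. In P100 against P40, 0 of 3 were called by edgeR's quasi-likelihood test and 0 by DESeq2, where edgeR called 4.85% of all miRNAs, 2.2% higher and 2.64% lower. In that comparison 0 of the 3 entries had an unadjusted p below 0.05 (lowest 0.415). The 4 comparisons with lysate share its 3 libraries, and those with total exRNA share its 4.

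**Figure D3:**
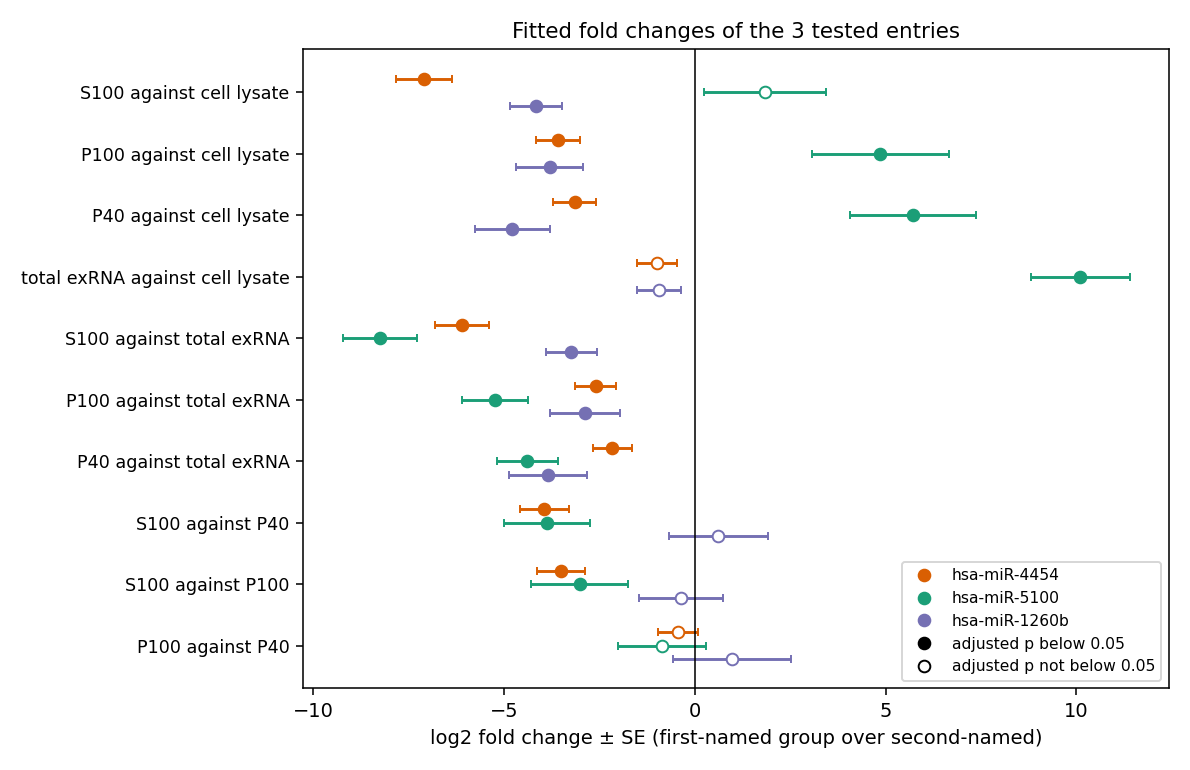
Fitted log2 fold changes with SE of miR-4454, miR-5100 and miR-1260b in the 10 comparisons, with filled points where the edgeR adjusted p was below 0.05. miR-4454 and miR-1260b lie at or below 0 in every comparison with lysate or total exRNA, while miR-5100 lies above 0 against lysate, where its 0 counts make the fitted value no bound, and furthest below 0 against total exRNA.

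Of 8 other miRNA names known for tRNA sequence, only miR-7977 had counts, 4 in lysate replicate 2, and none passed the filter. A name missing from the files may not have been in the annotation counted, so a 0 here is not read as absence. Its mature sequence also ends in CCA and shares with miR-5100 a 7-base run that is its own seed, which is why it is shown.
hsa-miR-7977: uUCCCAGCcaacgcacca
miR-7975, picked out above by its match to a tRNA gene end, is not on that list.

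Names listed for other RNA classes were mostly higher outside the cells, though 3 were lower in S100. The list holds 18 entries linked to rRNA, snRNA, snoRNA or mitochondrial RNA. miR-12136 is on it as a mitochondrial sequence. Whether it matches mitochondrial rRNA or tRNA was not examined, so the list may not be free of tRNA sequence. Of the 18, 11 were tested, among them the miR-10396 arms, miR-663a, miR-663b and miR-3648, which are linked to rRNA. Against lysate, 7 were higher and 3 lower in S100, 11 higher and 0 lower in P100, 9 higher and 0 lower in P40, and 9 higher and 1 lower in total exRNA. Of all 227 miRNAs, 32.2% were higher and 30% lower in S100, and 16.7% and 20.7% in P100. In P40 the shares were 13.7% and 13.2%, and in total exRNA 18.9% and 16.3%. miR-663b had 0 counts in lysate and miR-10396a-5p 1, so both passed the filter through extracellular libraries only. Counts over the list are partly set by that. The median log2 fold change of the 11 tested entries was 2.58 in S100, 6.32 in P100, 4.29 in P40 and 3.86 in total exRNA, beside medians over all tested miRNAs of -0.04, -0.10, 0.06 and 0.01. miR-1246, a match to part of the spliceosomal U2 snRNA, was higher than in lysate in S100 by 3.66 ± 0.47 (edgeR adjusted p = 9.1e-07), in P100 by 3.24 ± 0.46, in P40 by 4.29 ± 0.48 and in total exRNA by 2.03 ± 0.44. miR-4485-3p, which shares sequence with mitochondrial 16S rRNA, was lower in S100 (-5.68 ± 0.76, edgeR adjusted p = 3.1e-06), as miR-4454 was, but higher in P100 (3.70 ± 0.63), where miR-4454 was lower. The others lower in S100 were miR-3651 (-2.80 ± 0.40) and miR-12136 (-2.85 ± 0.62). In total exRNA, miR-12136 was lower (-1.83 ± 0.58, edgeR adjusted p = 0.0175) and miR-3651 did not differ (-0.69 ± 0.36, edgeR adjusted p = 0.140).

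As a share of all counts, miR-4454, miR-5100, miR-1260a and miR-1260b together made up 0.0197% ± 0.0107 (SD) over 3 S100, 0.196% ± 0.0599 over 4 P100, 0.306% ± 0.155 over 4 P40, 1.53% ± 0.858 over 4 total exRNA and 2.08% ± 0.695 over 3 lysate libraries. The 18 other entries made up 0.933% ± 0.0861 in S100, 6.51% ± 1.08 in P100, 3.45% ± 0.490 in P40, 3.75% ± 2.30 in total exRNA and 0.326% ± 0.0789 in lysate. By mean, lysate was thus highest in the share of these 4 and lowest in the other, and P100 held the largest share of the other list beside a small share of these 4. Total exRNA replicate 2 was the lowest of its group in both, with 0.466% and 1.44%. Blood cell marker miRNAs, 7 listed, had a mean of 0.0121% in S100, 0.221% in P100, 0.319% in P40, 0.166% in total exRNA and 0.0416% in lysate. In lysate miR-451a was at 0, while miR-486-5p had 105 counts, with some in all 3 libraries. The part of blood cell markers in the results was not tested.

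**Figure D4:**
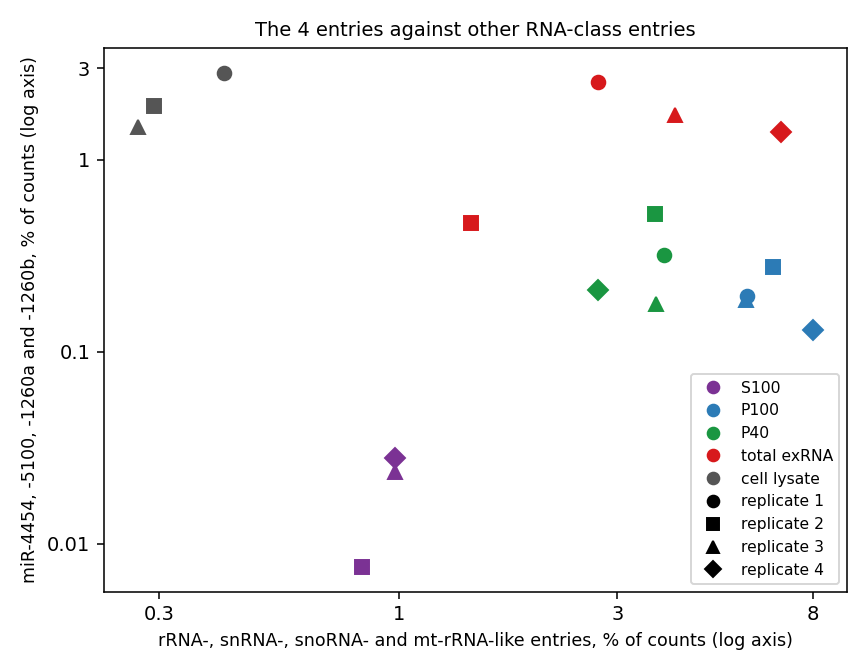
Share of all counts held by miR-4454, miR-5100, miR-1260a and miR-1260b together (y axis) against that of 18 entries linked to rRNA, snRNA, snoRNA or mitochondrial RNA (x axis). Both are in percent on log axes, with 1 point per library coloured by group and shaped by replicate number. S100 libraries lie lowest on the y axis, P100 libraries at the right with 5.72% to 8.03%, with total exRNA replicate 4 at 6.82% between them, and lysate libraries at the upper left with 0.270% to 0.417% on the x axis.

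Across the 18 libraries, whose group differences and depth all miRNAs share, the tested miRNAs most like miR-4454 by Spearman correlation of log2 CPM were miR-103a-3p (0.94), miR-107 (0.92), miR-23b-3p (0.90), miR-205-5p (0.85) and miR-200a-5p (0.84). Those most like miR-5100 were miR-200a-3p (0.75), miR-27a-3p (0.71), miR-4466 (0.69), miR-4492 (0.65) and miR-663b (0.65). Those most like miR-1260b were miR-31-5p (0.77), miR-23b-3p (0.71), miR-200a-5p (0.66), miR-203a-3p (0.65) and miR-196b-5p (0.64). None of the 3 tested entries was among the 5 nearest of another. Between themselves the correlation was 0.63 for miR-4454 and miR-1260b, 0.33 for miR-4454 and miR-5100 and -0.02 for miR-5100 and miR-1260b. Taken as deviations from group means over the same 18 libraries, miR-4454 and miR-5100 stood at 0.64 and miR-4454 and miR-1260b at 0.06. By this measure the 5 nearest to miR-4454 ranged from 0.22 (miR-205-5p) to 0.75 (miR-107). Those nearest to miR-5100 ranged from -0.03 (miR-663b) to 0.66 (miR-4466), so a value like 0.64 was also reached outside the pair. Most miR-5100 counts outside total exRNA were near 0, where such deviations are mostly counting error.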

How the data were processed

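Small RNA libraries (RealSeq-AC kit, single reads of 50 bases) were counted per mature human miRNA. The deposited values are raw counts, 1 file per library. The submitters' processing notes name cutadapt 1.16, FastQC, Bowtie2 and GRCh38, and the order of steps, the handling of reads matching several entries and the annotation release are not given in the sources used here. Libraries listing fewer than 100 miRNAs were left out, which leaves 18. The count test was edgeR 4.0.16 under R 4.3.3, where filterByExpr (minimum count 10, minimum total 15) kept 227 miRNAs holding 98.5% to 99.1% of each library's counts, with TMM scaling and 1 robust quasi-likelihood model of 5 groups (common biological coefficient of variation 0.419). A miRNA was called at a Benjamini-Hochberg adjusted p below 0.05 over 227 miRNAs. The fit was tested on simulated data. No 2 libraries of a group agreed within sampling noise. Alternatives used DESeq2 1.42.0, other filters, scalings and samples, and equal depth. Batch numbers equal replicate numbers in the labels, so they pair libraries by label. Deviations of same-numbered libraries from their group means correlated at -0.57 to 0.31 (over 0.1 in 7 of 32 pairs). The members and lists, and the rule for named miRNAs (the 4 entries, the 5 most alike, and the most abundant of the lists), were chosen with earlier results of these data known. Sequences came from RefSeq tables of GRCh38.p14 and gene overlaps from the GENCODE annotation.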

Additional observations from a re-analysis of the deposited data

Results flagged for a closer look

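Groups of 4 libraries were searched for a library set far apart from the rest by Dixon's ratio of gap to range, and 3 of 12 such sets stood out, where chance flags about 1 in 20 for continuous values. That rate does not apply to sparse counts, since any single library with a count among 3 at 0 stands out. miR-1260b had 87.6 CPM in P100 replicate 3, from 2 counts, and 0 in the other P100 libraries. It had 34.6 CPM in P40 replicate 3, from 1 count, and 0 in the other P40 libraries. The share of miR-5100 in the pair with miR-4454 was 0 in P40 replicate 3, from 45 reads, and 4.04% to 4.55% in the other P40 libraries. Each rests on 0 to 2 counts in the library set apart.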

How the results depend on the processing

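Each fold change and count of calls was recomputed under 26 alternatives, 18 of which left out 1 library, and the ratio of miR-4454 to miR-5100 under other pseudocounts and without each library of its groups. For miR-4454, 259 of 260 values kept their direction and their side of the threshold, for miR-5100 236 of 259 and for miR-1260b 247 of 258, and equal depth left no difference to report for miR-5100 in S100 against lysate or for miR-1260b in S100 or P100 against P40. The number of the 3 entries called, 2 in both cases, was 1 at equal depth in S100 against P40 (1 to 2 when a library was left out), and 1 in S100 against P100 without the low-count filter, with only these groups in the fit, with the replicate block and at equal depth (1 to 2). The entry lost was miR-5100 each time. The replicate block also ended the miR-5100 call in P100 against lysate (adjusted p = 0.0537) and changed no other call of the 3 entries. Directions that turned were all of differences that had not passed. Leaving out 1 library gave -3.01 to 3.89 for miR-1260b in P100 against P40, -0.59 to 0.045 for miR-4454 in P100 against P40, and -0.86 to 3.63 for miR-1260b in S100 against P100, which was 0.24 without the filter. The log2 ratio of miR-4454 to miR-5100 ranged from -0.10 to 0.87 in P100 against P40, -1.37 to 0.52 in S100 against P100 and -1.09 to 0.79 in S100 against P40, which was 0.096 with a pseudocount of 0.1. The causes were not tested. Without the filter the median of all miRNAs moved by 0.46 to 0.70 in the comparisons of S100, and with library size only by 0.32 and 0.34 in total exRNA and P40 against lysate. In P40 and P100 a floor of 3 counts stands near 40 CPM, so levels of miR-5100 and miR-1260b below it would rest on fewer than 3 counts over the group.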
